A study of Mus musculus with 23 samples.

Results

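The 10 genes described here mark the blood vessel lining and the growth of vessels in the mouse ovary: Pecam1, Cdh5, Kdr, Flt1, Tek, Tie1, Emcn, Eng, Plvap and Vegfa. They were chosen by symbol, and all 10 were found among the 24716 genes of the deposited count table. RNA of ovary tissue had been sequenced from female, genetically unmodified mice of 3 inbred strains on 2 diets that both held fiber, 1 with 44% fat (high fat, high sugar) and 1 with 10% fat (control). The groups were NZO/HlLtJ on 44% fat (4 libraries), NZO/HlLtJ on 10% fat (4), CAST/EiJ on 44% fat (4), CAST/EiJ on 10% fat (4), C57BL/6J on 44% fat (4) and C57BL/6J on 10% fat (3), 23 libraries in all. All mice started their diet at an age of 6 weeks and were sampled at an age of 15 weeks. NZO/HlLtJ is a strain prone to obesity and diabetes through many genes, CAST/EiJ descends from wild Mus musculus castaneus, and C57BL/6J is the common laboratory strain. No body weight or blood glucose of these females was used here, so their obesity or diabetes is not known from these data. The labels name no animal per library and no stage of the ovarian cycle, so a p-value here reflects variation from library to library, part of which may be technical.

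Endothelial cells line every blood vessel, and the ovary is one of the few adult tissues in which vessels grow and regress with each cycle, most densely around the follicle wall and in the corpus luteum. The ligand VEGF-A, the product of Vegfa, is released by the surrounding tissue and acts on the receptor tyrosine kinases KDR (VEGFR2) and FLT1 (VEGFR1) of the endothelium, and FLT1 also acts as a decoy that holds the ligand back. The angiopoietins act on TEK (TIE2) together with its partner TIE1, which steadies or loosens vessels. CDH5 (VE-cadherin) and PECAM1 join endothelial cells to each other, endomucin (EMCN) coats the surface of capillaries and veins, endoglin (ENG) is a co-receptor for BMP9 and TGF-beta, and PLVAP forms the diaphragms of fenestrae.

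All 10 genes were well above the detection floor in each of the 23 libraries, whose totals ran from 31938819 to 45850873 estimated counts. The lowest count of any of them in a library was 121 for Plvap, and the highest was 8920 for Cdh5. On the scale of CPM (counts scaled to a common library size) per kilobase of exon, which allows levels of different genes to be compared, the ligand Vegfa ranked first with a mean of 32.6 ± 5.28 (SD, n = 23). Cdh5 followed with 28.5 ± 6.91 and Eng with 24.6 ± 4.76. In the middle came Pecam1 at 13.0, Kdr at 11.2, Tie1 at 8.17 and Tek at 7.76. The lowest levels were those of Emcn at 5.56, Plvap at 5.25 and Flt1 at 3.03. Of the neighbours in this order, Eng alone lay above the next gene, Pecam1, in 23 of 23 libraries. The higher gene of the pair was above the next in 12 libraries for Emcn over Plvap, 14 for Vegfa over Cdh5, 15 for Tie1 over Tek, 17 for Cdh5 over Eng, 20 for Pecam1 over Kdr and for Tek over Emcn, and 22 for Kdr over Tie1 and for Plvap over Flt1. A pair of libraries stood apart in markers of the oviduct epithelium, with a summed level of 5102 CPM in CAST/EiJ 10% fat replicate 2 and 232 CPM in C57BL/6J 44% fat replicate 1, against 3.13 to 41.0 CPM in the other 21. Results that rest on them are given with and without both. In whole tissue, fewer endothelial cells and less of an RNA per endothelial cell cannot be told apart in any of the values below. The sources used here do not say if CAST/EiJ and NZO/HlLtJ reads were aligned to their own genomes or to the C57BL/6J reference. The part of alignment in the strain differences was not tested.

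**Figure D1:**
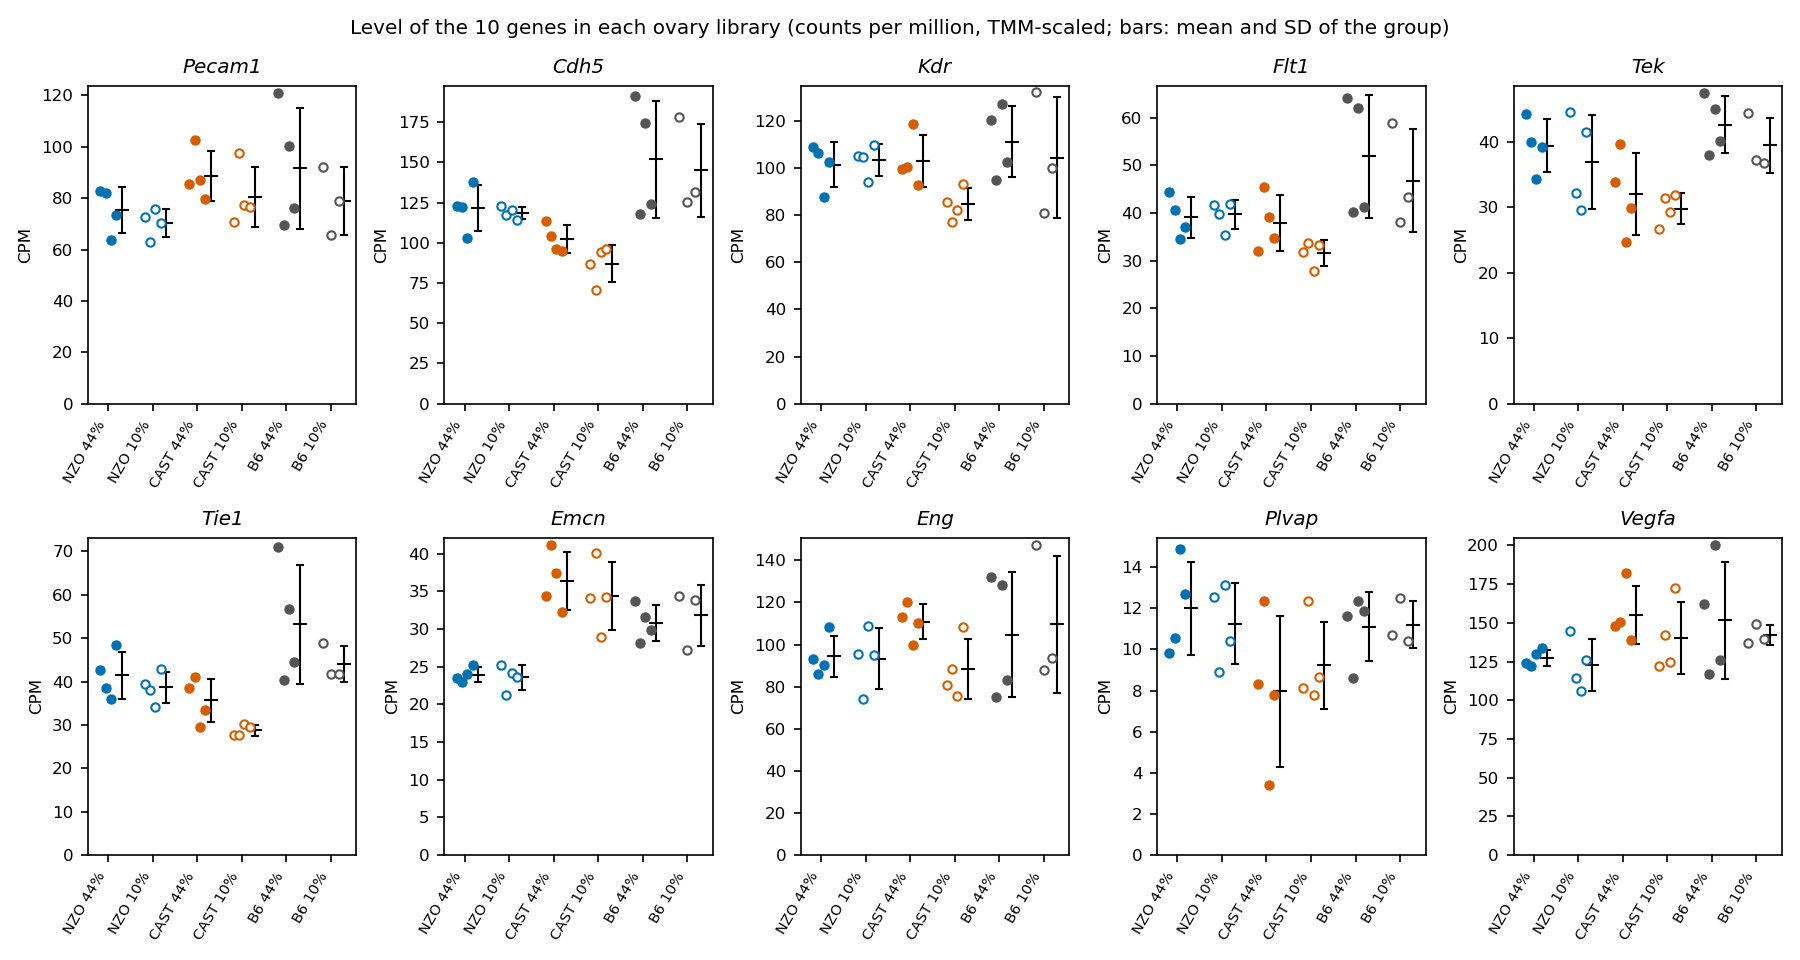
Level of each gene in CPM (scaled by the TMM factors, vertical axes from 0) in each of the 23 ovary libraries, with filled points for 44% fat and open points for 10% fat, and with the mean and SD of each group as bars (B6 is C57BL/6J). Emcn is lower in all 8 NZO/HlLtJ libraries (21.3 to 25.2 CPM) than in any library of the other strains, and Cdh5 is lower in all 8 CAST/EiJ libraries (70.7 to 113 CPM) than in all 7 of C57BL/6J (118 to 191 CPM).

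Averaged over both diets, 4 of the 10 genes were lower in CAST/EiJ than in C57BL/6J ovaries and none was higher: the junction gene Cdh5, the angiopoietin receptor genes Tie1 and Tek, and the VEGF receptor gene Flt1. Their folds ran from 1.57 lower for Cdh5 to 1.33 lower for Tek, while Pecam1 and Vegfa stood at almost the same mean level in both strains. Over all 20189 genes tested, 46.8% passed the same threshold between these strains (edgeR quasi-likelihood test, Benjamini-Hochberg adjusted p under 0.05), so a count of 4 in 10 is near the background. The median log2 fold change was -0.29 over the 10 genes and 0.01 over all genes tested.

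Cdh5 (GRCm38 chr8:104101625-104144502, plus strand, in the authors' annotation) had 113, 104, 95.9 and 94.7 CPM on 44% fat and 86.8, 70.7, 94.2 and 96.1 CPM on 10% fat in CAST/EiJ. In C57BL/6J it had 191, 118, 174 and 124 CPM on 44% fat and 178, 125 and 131 CPM on 10% fat. The strains did not overlap, which held for 15.9% of all genes tested, and 3 of the 7 C57BL/6J libraries stood well above the other 4. The means were 94.5 ± 12.5 CPM in CAST/EiJ and 149 ± 31.0 CPM in C57BL/6J (SD, n = 8 and 7), log2 -0.66 ± 0.10 SE with an edgeR adjusted p of 3.45e-05. Set against Pecam1 of the same library, which removes the scaling between libraries, the ratio per kilobase of Cdh5 to Pecam1 was 1.08 to 1.96 in CAST/EiJ and 2.35 to 2.87 in C57BL/6J, again without overlap.

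Tie1 (chr4:118471191-118490061, minus strand) had 38.5, 41.0, 29.6 and 33.5 CPM on 44% fat and 27.8, 27.7, 30.2 and 29.4 CPM on 10% fat in CAST/EiJ. The C57BL/6J libraries had 71.1, 40.4, 56.8 and 44.6 CPM on 44% fat and 48.9, 41.8 and 41.7 CPM on 10% fat. The highest CAST/EiJ library, at 41.0 CPM, lay just above the lowest of C57BL/6J, at 40.4 CPM, and the groups otherwise stood apart. Tie1 was 1.51-fold lower in CAST/EiJ (log2 -0.60 ± 0.10 SE, edgeR adjusted p = 8.16e-05). Its partner Tek (chr4:94739289-94874976, plus strand) was 1.33-fold lower (log2 -0.41 ± 0.10 SE, adjusted p = 0.00241). Tek averaged 30.9 ± 4.58 CPM in CAST/EiJ, with a range of 24.7 to 39.6 CPM, and 41.2 ± 4.27 CPM in C57BL/6J, with a range of 36.8 to 47.3 CPM. In 1 CAST/EiJ library, on 44% fat at 39.6 CPM, Tek lay within the C57BL/6J range, and the other 7 were at most 33.9 CPM.

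Flt1 (chr5:147561604-147726011, minus strand) had 32.0, 45.4, 39.1 and 34.7 CPM on 44% fat and 31.8, 33.6, 27.8 and 33.3 CPM on 10% fat in CAST/EiJ. C57BL/6J libraries gave 64.0, 40.2, 62.0 and 41.2 CPM on 44% fat and 58.8, 38.1 and 43.4 CPM on 10% fat. Flt1 was 1.42-fold lower in CAST/EiJ (log2 -0.51 ± 0.11 SE, edgeR adjusted p = 0.001), with the strains overlapping between 38.1 and 45.4 CPM. The other VEGF receptor gene, Kdr (chr5:75932827-75978458, minus strand), averaged 93.9 ± 13.0 CPM in CAST/EiJ and 108 ± 18.7 CPM in C57BL/6J (log2 -0.21 ± 0.09 SE, adjusted p = 0.0643) and did not pass the threshold. The ratio of Flt1 to Kdr per kilobase averaged 0.249 in CAST/EiJ and 0.305 in C57BL/6J, given as a description. The 4 genes that passed did so in 31 of 31 other ways of running the test, each leave-one-library-out fit included.

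The library identifiers in the labels fall into 3 series that begin with 76, 82 and 90, and the labels do not say what the series stand for. In that order they held 2, 3 and 3 libraries of CAST/EiJ, 2, 4 and 1 of C57BL/6J and 4, 2 and 2 of NZO/HlLtJ. The diets were not balanced within them, and the 1 C57BL/6J library of series 90 was on 44% fat. Differences within series, here and below, are thus descriptions that rest on few libraries. Within these series, in that order, the CAST/EiJ minus C57BL/6J difference of mean log2 CPM was -0.90, -0.61 and -0.38 for Cdh5, -0.85, -0.47 and -0.52 for Tie1, -0.94, -0.20 and -0.37 for Flt1 and -0.61, -0.32 and -0.41 for Tek, below 0 in all 3 for each gene. The members that missed the threshold were Emcn (log2 0.17 ± 0.07 SE, edgeR adjusted p = 0.0573), Plvap (log2 -0.38 ± 0.19 SE, 0.104), Eng (log2 -0.11 ± 0.13 SE, 0.506), Pecam1 (log2 -0.01 ± 0.11 SE, 0.961) and Vegfa (log2 0.01 ± 0.10 SE, 0.957), besides Kdr. For Pecam1 the 95% interval of the fold ran from 0.847 to 1.17, and for Vegfa from 0.864 to 1.17. Plvap (chr8:71497754-71511769, minus strand) had the widest spread, with 8.34, 12.3, 3.39 and 7.79 CPM on 44% fat and 8.12, 12.3, 7.80 and 8.65 CPM on 10% fat in CAST/EiJ, where 1 library on 44% fat stood far below the rest, and 8.62 to 12.5 CPM in C57BL/6J. Part of the Eng exons, 61 bases, overlaps Fpgs on the opposite strand, and whether the counting used strand is not given in the sources used here.

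Promoter sequences are shown for the genes whose strain differences passed the threshold and for which RefSeq gives a start site in the tables used here: Tie1, Tek, Flt1 and, for the next comparison, Emcn. Each runs 5′ to 3′ on the gene's own strand from 250 bases before to 50 after the annotated start (RefSeq, GRCm38.p6, C57BL/6J reference sequence; the alleles of CAST/EiJ and NZO/HlLtJ are not used here). Capitals mark GGAA and its reverse complement TTCC, the core bound by ETS factors, a family known for driving endothelial genes.
Tie1 promoter: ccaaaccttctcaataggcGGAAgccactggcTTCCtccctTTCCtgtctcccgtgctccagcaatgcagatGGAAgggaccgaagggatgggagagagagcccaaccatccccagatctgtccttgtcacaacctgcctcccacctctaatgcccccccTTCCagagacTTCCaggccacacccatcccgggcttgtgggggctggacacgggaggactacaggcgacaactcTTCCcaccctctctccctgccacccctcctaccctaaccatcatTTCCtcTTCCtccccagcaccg
Tek promoter: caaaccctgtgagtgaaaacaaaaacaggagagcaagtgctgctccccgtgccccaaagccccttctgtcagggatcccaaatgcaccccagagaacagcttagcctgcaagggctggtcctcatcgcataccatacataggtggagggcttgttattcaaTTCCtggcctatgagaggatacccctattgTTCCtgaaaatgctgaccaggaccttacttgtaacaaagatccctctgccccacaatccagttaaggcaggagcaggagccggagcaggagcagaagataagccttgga
Flt1 promoter: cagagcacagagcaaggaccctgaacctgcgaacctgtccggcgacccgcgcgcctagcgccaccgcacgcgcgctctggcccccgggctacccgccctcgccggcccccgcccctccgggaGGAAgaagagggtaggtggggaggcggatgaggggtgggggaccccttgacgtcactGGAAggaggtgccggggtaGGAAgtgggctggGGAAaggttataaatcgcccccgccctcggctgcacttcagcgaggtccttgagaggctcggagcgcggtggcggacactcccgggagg
Emcn promoter: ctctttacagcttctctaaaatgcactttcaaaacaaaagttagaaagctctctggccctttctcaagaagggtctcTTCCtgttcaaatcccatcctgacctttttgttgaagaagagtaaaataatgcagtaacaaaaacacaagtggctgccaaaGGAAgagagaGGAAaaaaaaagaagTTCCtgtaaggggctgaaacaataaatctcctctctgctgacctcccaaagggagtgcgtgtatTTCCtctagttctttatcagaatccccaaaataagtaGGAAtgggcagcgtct

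The windows lie at chr4:118489800-118490099, minus strand (Tie1), chr4:94739039-94739338, plus strand (Tek), chr5:147725962-147726261, minus strand (Flt1) and chr3:137340828-137341127, plus strand (Emcn). Counting both strands, GGAA occurred 9 times in the Tie1 window, 2 times in that of Tek, 4 in that of Flt1 and 6 in that of Emcn. Among the 32851 promoter windows of the same length, 96.0% held at least 1 GGAA, and the median number was 3. At least as many as in Tie1 were found in 1.59% of all windows, at least as many as in Emcn in 15.7%, at least as many as in Flt1 in 46.3% and at least as many as in Tek in 84.6%. Among the other members with a window, Kdr held 5 (at least as many in 28.6% of windows), Eng 4, and the 2 annotated starts of Vegfa 6 and 3. These matches describe the reference letters only; no strain difference in sequence was examined.

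NZO/HlLtJ ovaries differed from C57BL/6J ovaries most clearly in the surface gene Emcn, which was lower in every NZO/HlLtJ library than in every C57BL/6J library. Cdh5 and Flt1 were lower by smaller amounts, 7 genes did not pass the threshold, and none was higher. Over all genes tested 23.9% passed between these strains, so a count of 3 in 10 is again near the background. The median log2 fold change was -0.23 over the 10 genes and -0.00065 over all genes tested.

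Emcn (chr3:137341067-137432185, plus strand) had 23.6, 22.9, 24.0 and 25.2 CPM on 44% fat and 25.2, 21.3, 24.2 and 23.6 CPM on 10% fat in NZO/HlLtJ. The C57BL/6J libraries had 33.8, 28.1, 31.6 and 29.9 CPM on 44% fat and 34.3, 27.2 and 33.9 CPM on 10% fat. The strains did not overlap, which held for 7.79% of all genes tested. Emcn averaged 23.8 ± 1.28 CPM in NZO/HlLtJ and 31.2 ± 2.91 CPM in C57BL/6J (SD, n = 8 and 7), 1.32-fold lower (log2 -0.40 ± 0.07 SE, edgeR adjusted p = 0.000423), and it passed in 31 of 31 other ways of running the test. Within the 3 identifier series (76, 82 and 90) the difference was -0.55, -0.33 and -0.28. NZO/HlLtJ was present only on 10% fat in series 82 and only on 44% fat in series 90.

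Cdh5 had 123, 122, 103 and 138 CPM on 44% fat and 123, 117, 120.1 and 114 CPM on 10% fat in NZO/HlLtJ, against 118 to 191 CPM in C57BL/6J. It was 1.24-fold lower (log2 -0.31 ± 0.10 SE, edgeR adjusted p = 0.0388). Flt1 had 44.3, 40.6, 34.5 and 36.9 CPM on 44% fat and 41.7, 39.8, 35.4 and 41.8 CPM on 10% fat in NZO/HlLtJ, against 38.1 to 64.0 CPM in C57BL/6J, and was 1.25-fold lower (log2 -0.32 ± 0.11 SE, adjusted p = 0.0449). For both genes the NZO/HlLtJ libraries lay around the level of the 4 lower C57BL/6J libraries, and all lay below the other 3. Both calls depended on single libraries: without C57BL/6J 10% fat replicate 1 the edgeR adjusted p was 0.190 for Cdh5 and 0.214 for Flt1, and in all the call was lost in 12 of 31 alternatives for Cdh5 and 19 for Flt1. The call of Cdh5 was also lost without any 1 of C57BL/6J 44% fat replicates 1 and 3, NZO/HlLtJ 10% fat replicates 1, 2 and 4 and NZO/HlLtJ 44% fat replicates 1, 2 and 3, with limma on the variance-stabilised values, with only the groups compared in the fit, and without both libraries high in oviduct markers (adjusted p = 0.0531 to 0.190 over these alternatives). That of Flt1 was also lost without any 1 of C57BL/6J 10% fat replicate 3, C57BL/6J 44% fat replicates 1 and 3, CAST/EiJ 10% fat replicates 1 and 4, CAST/EiJ 44% fat replicates 3 and 4, NZO/HlLtJ 10% fat replicates 1, 2, 3 and 4 and NZO/HlLtJ 44% fat replicates 2, 3 and 4, with limma voom and library weights, and in the same 3 other alternatives as Cdh5 (adjusted p = 0.0507 to 0.214). Within the identifier series the differences were -0.61, -0.21 and -0.05 for Cdh5 and -0.56, -0.23 and -0.21 for Flt1. Tie1 (log2 -0.28 ± 0.10 SE, edgeR adjusted p = 0.0588), Vegfa (log2 -0.23 ± 0.10 SE, 0.119) and Pecam1 (log2 -0.22 ± 0.11 SE, 0.150) had lower means without passing. Eng (-0.19), Tek (-0.10), Kdr (-0.07) and Plvap (0.06) had log2 fold changes with adjusted p-values of 0.328 and above.

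**Figure D2:**
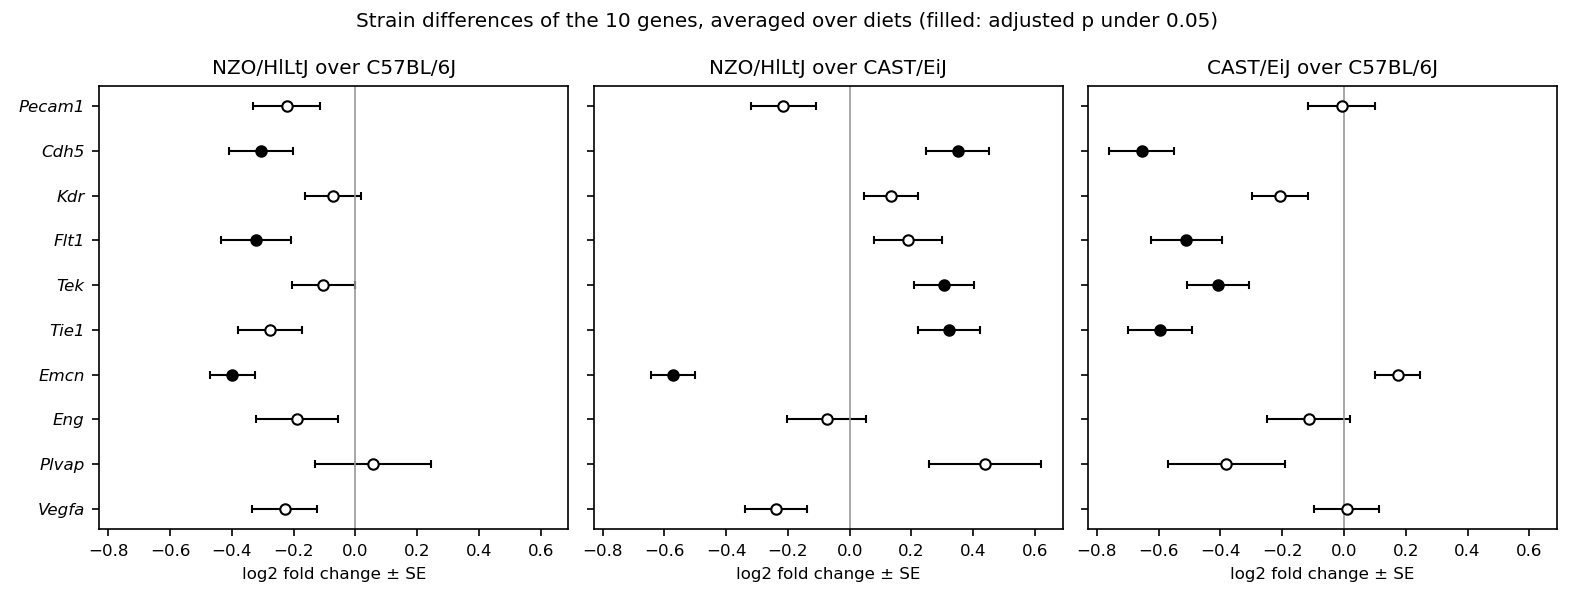
Log2 fold change with its SE (horizontal axes) of each of the 10 genes in the 3 strain comparisons, averaged over diets, with filled points for an edgeR adjusted p under 0.05. Emcn lies below 0 in both NZO/HlLtJ panels (-0.40 and -0.57), and Cdh5, Tie1, Flt1 and Tek lie below 0 in the CAST/EiJ panel.

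Set directly against CAST/EiJ, NZO/HlLtJ ovaries had more Cdh5, Tie1 and Tek and less Emcn, so that the genes moved in opposite directions between these strains. In all, 4 of the 10 genes passed, against 48.1% of all genes tested, again near the background. Emcn was 1.49-fold lower in NZO/HlLtJ, with 21.3 to 25.2 CPM in NZO/HlLtJ and 29.0 to 41.2 CPM in CAST/EiJ (log2 -0.57 ± 0.07 SE, edgeR adjusted p = 1.29e-06). It was the only one of the 10 whose libraries did not overlap between these strains, a feature of 16.8% of all genes tested. In CAST/EiJ, Emcn had 34.4, 41.2, 37.5 and 32.2 CPM on 44% fat and 34.1, 40.1, 29.0 and 34.2 CPM on 10% fat.

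Cdh5 was 1.27-fold higher in NZO/HlLtJ (120.1 ± 9.72 CPM in NZO/HlLtJ and 94.5 ± 12.5 CPM in CAST/EiJ; log2 0.35 ± 0.10 SE, edgeR adjusted p = 0.00735). Tie1 was 1.25-fold higher (40.1 ± 4.51 CPM and 32.2 ± 5.01 CPM in the same strains; log2 0.32 ± 0.10 SE, adjusted p = 0.0115). Tek was 1.24-fold higher (38.1 ± 5.57 CPM and 30.9 ± 4.58 CPM; log2 0.30 ± 0.10 SE, adjusted p = 0.0141). All 4 calls held in 31 of 31 alternatives. Within the identifier series (76, 82 and 90) the NZO/HlLtJ minus CAST/EiJ differences were -0.56, -0.72 and -0.37 for Emcn, 0.29, 0.40 and 0.33 for Cdh5, 0.28, 0.25 and 0.43 for Tie1 and 0.41, 0.16 and 0.27 for Tek. Plvap (log2 0.44 ± 0.18 SE, edgeR adjusted p = 0.0519) and Vegfa (log2 -0.24 ± 0.10 SE, 0.0565) came close to the threshold, Plvap being called in 10 and Vegfa in 7 of 31 alternatives. Vegfa (chr17:46016993-46032377, minus strand) averaged 125 ± 11.7 CPM in NZO/HlLtJ, 148 ± 21.1 CPM in CAST/EiJ and 147 ± 27.6 CPM in C57BL/6J, with the lowest mean in NZO/HlLtJ. Pecam1 (chr11:106654217-106750628, minus strand) also had its lowest mean in NZO/HlLtJ, with 72.9 ± 7.38 CPM, 84.6 ± 10.8 CPM and 86.1 ± 19.6 CPM in the same strains. Neither of its differences from NZO/HlLtJ passed the threshold (edgeR adjusted p = 0.0994 and 0.150). Eng (chr2:32646595-32682669, plus strand) averaged 93.9 ± 11.4 CPM, 99.6 ± 16.2 CPM and 107 ± 28.4 CPM, with edgeR adjusted p-values of 0.661 between NZO/HlLtJ and CAST/EiJ and 0.328 between NZO/HlLtJ and C57BL/6J.

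The ratio per kilobase of Emcn to Pecam1 averaged 0.378 in NZO/HlLtJ, 0.483 in CAST/EiJ and 0.429 in C57BL/6J, and that of Cdh5 to Pecam1 averaged 2.45 in NZO/HlLtJ, 1.68 in CAST/EiJ and 2.58 in C57BL/6J. The libraries ran from 0.323 to 0.434 in NZO/HlLtJ, from 0.431 to 0.555 in CAST/EiJ and from 0.322 to 0.496 in C57BL/6J for Emcn to Pecam1, and from 2.20 to 2.78 in NZO/HlLtJ for Cdh5 to Pecam1. On average Emcn was thus low relative to Pecam1 in NZO/HlLtJ, and Cdh5 in CAST/EiJ, in ratios that do not depend on the scaling between libraries. The ratio of Tek to Tie1 averaged 0.995 in NZO/HlLtJ, 1.01 in CAST/EiJ and 0.890 in C57BL/6J. These ratios are descriptions and were not tested.

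No difference between 44% fat and 10% fat passed the threshold for any of the 10 genes, in any strain or averaged over strains, and the 44% and 10% fat libraries overlapped for each gene in each strain. In CAST/EiJ 0.624% of all genes tested passed between the diets (126 genes), and in NZO/HlLtJ, in C57BL/6J and averaged over strains 0% passed. By edgeR at an unadjusted p under 0.05, 2 of the 10 genes were below that level in CAST/EiJ, 0 in NZO/HlLtJ, 0 in C57BL/6J and 1 averaged over strains, while all genes tested gave 2721, 710, 1783 and 1190. DESeq2, limma on the variance-stabilised values and limma voom with library weights also called 0 of the 10 in each of these comparisons.

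In CAST/EiJ 9 of the 10 genes had a higher mean on 44% fat, with a median log2 fold change of 0.19 over the 10 genes and -0.02 over all genes tested. Kdr had 99.8, 100.5, 119 and 93.0 CPM on 44% fat and 85.6, 77.2, 82.5 and 93.4 CPM on 10% fat, log2 0.28 ± 0.12 SE (edgeR adjusted p = 0.310). Tie1 had 38.5, 41.0, 29.6 and 33.5 CPM on 44% fat and 27.8, 27.7, 30.2 and 29.4 CPM on 10% fat, log2 0.31 ± 0.14 SE (edgeR adjusted p = 0.343). For both genes the diets overlapped at the edge of their ranges. Markers of other ovarian cells moved with the diet in the same libraries: the summed level of 8 luteal markers was 11134 to 13105 CPM on 44% fat and 5383 to 7545 CPM on 10% fat, with 1 of the 8, Cyp11a1, passing the threshold (without both libraries high in oviduct markers, 2 of the 8). The summed level of 11 macrophage markers was 791 to 2038 CPM on 44% fat and 392 to 528 CPM on 10% fat, with 7 of the 11 passing, all higher on 44% fat (4 of the 11 without both libraries). The 3 most abundant of the 7 were Lyz2 (log2 1.73, edgeR adjusted p = 0.0219), Csf1r (0.94, 0.0219) and C1qc (1.01, 0.0187). Of these, Csf1r did not pass without both libraries (edgeR adjusted p = 0.0639), and none of the 3 passed without CAST/EiJ 44% fat replicate 2 (adjusted p up to 0.0837, 0.0837 and 0.0578), nor did Lyz2 and Csf1r without CAST/EiJ 10% fat replicate 2. The call of Cyp11a1 was lost without CAST/EiJ 44% fat replicate 2 or replicate 3 (edgeR adjusted p up to 0.0669). The summed level of the theca markers was also higher, at 2843 to 2968 CPM on 44% fat and 1102 to 2069 CPM on 10% fat. The most abundant theca markers, Aldh1a1 and Cyp17a1, did not pass (edgeR adjusted p = 0.116 and 0.878). The part of the luteal, macrophage and theca markers in the endothelial values was not tested.

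In NZO/HlLtJ the diet differences of the 10 genes lay between log2 -0.03 for Kdr and 0.10 for Pecam1, each with an SE of 0.10 to 0.26. For Emcn in that strain the 95% interval of the fold ran from 0.877 to 1.17. In C57BL/6J they lay between -0.07 for Eng and 0.27 for Tie1, with SEs of 0.11 to 0.28. Averaged over strains, the gene below an unadjusted p of 0.05 was Tie1, log2 0.23 ± 0.08 SE (edgeR adjusted p = 0.773). The 95% intervals of the 10 folds averaged over strains together spanned 0.777 to 1.32. Average diet changes beyond these bounds thus lay outside the intervals of all 10 genes. The bounds do not hold for the diet effect within a single strain, where the SEs were larger. The diet effect was also compared between strains by interaction terms, and 0 of the 10 genes passed in any of the 3 tests. Over all genes tested the interaction passed for 0.0149% between NZO/HlLtJ and CAST/EiJ, for 0% between NZO/HlLtJ and C57BL/6J and for 0.614% between CAST/EiJ and C57BL/6J. At an unadjusted p under 0.05 edgeR gave 0 of the 10 genes in each, and DESeq2 called 0. The smallest interaction p among the 10 genes was that of Kdr between NZO/HlLtJ and CAST/EiJ (log2 -0.31 ± 0.17 SE, edgeR adjusted p = 0.513).

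**Figure D3:**
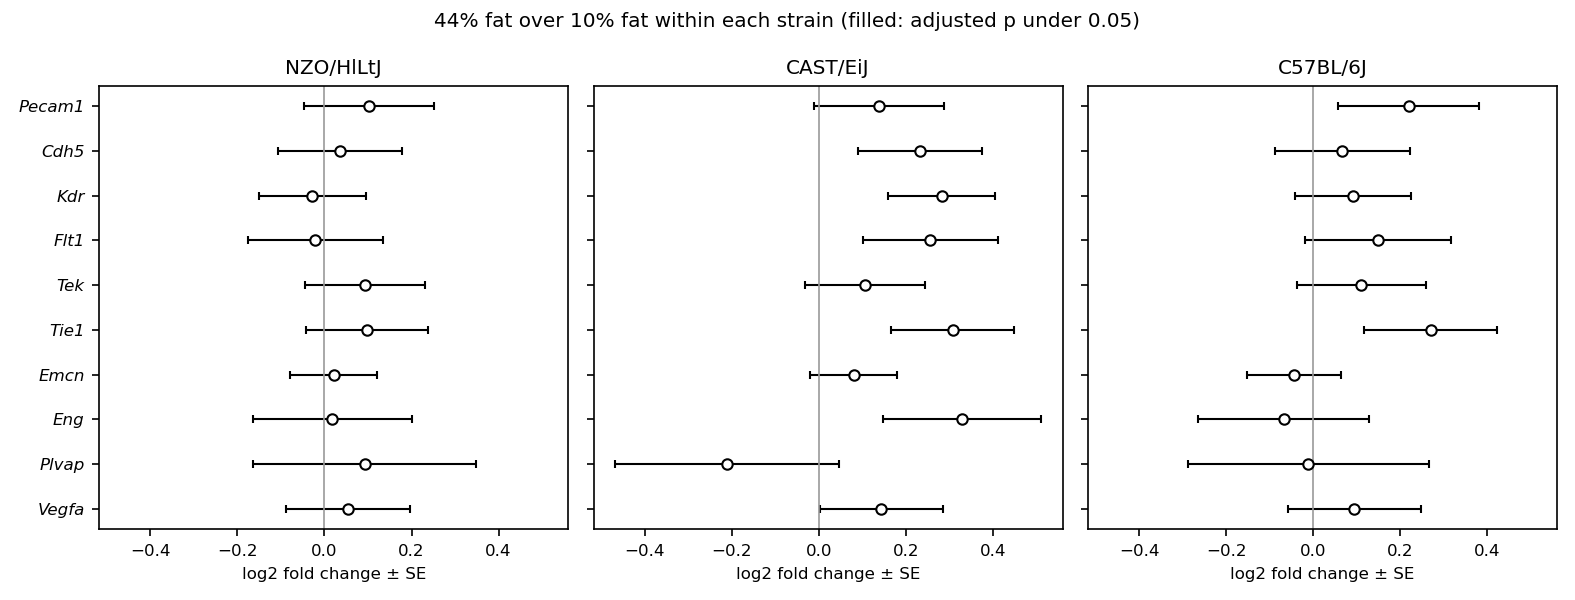
Log2 fold change of 44% fat over 10% fat with its SE (horizontal axes) of each of the 10 genes within NZO/HlLtJ, CAST/EiJ and C57BL/6J. All points are open, none having an edgeR adjusted p under 0.05, and in the CAST/EiJ panel 9 of the 10 points lie above 0.

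Within groups the endothelial genes varied together from library to library. Over the 36 pairs of the 9 genes other than Vegfa, the median Pearson correlation of log2 CPM, each library taken as its deviation from its group mean (23 libraries), was 0.57. It ran from -0.36 for Kdr with Plvap to 0.81 for Pecam1 with Flt1. Plvap had the lowest median correlation with the other 8, 0.29, and Tie1 the highest, 0.65. For Vegfa against the median deviation of the 9 genes, Pearson's r was 0.47 and Spearman's rho 0.49, and r was 0.32 without the 2 farthest libraries. These correlations describe libraries that share preparation and depth, and no p is given. Among the strains, C57BL/6J had the widest spread (SD over both diets) for Pecam1, Cdh5, Kdr, Flt1, Tie1 and Eng, but not for Tek, Emcn and Plvap. In C57BL/6J, 10% fat replicate 1, 44% fat replicate 1 and 44% fat replicate 3 were above the other 4 for 7 of the 9 endothelial genes, all but Emcn and Plvap. Eng, for example, had 128 to 147 CPM in these 3 libraries and 75.0 to 93.8 CPM in the other 4, and Pecam1 92.0 to 121 CPM and 65.6 to 78.7 CPM.

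The same 3 libraries had the 3 highest summed levels of the luteal markers among the C57BL/6J libraries, at 15618 CPM or more, against at most 14275 CPM in the other 4. This sum mostly follows the steroid enzyme genes Hsd3b1 and Cyp11a1, with means of 5363 and 3030 CPM over all libraries. Ptgfr and Sfrp4 added little to it, with means of 198 and 393 CPM. Across all libraries, again as deviations from group means, the endothelial pattern correlated with the log2 summed level of the pericyte markers (Pearson's r 0.64, Spearman's rho 0.68) and of the luteal markers (r 0.61, rho 0.49), and inversely with that of the theca markers (r -0.61, rho -0.53). Without the 2 farthest libraries r was 0.53 for pericyte, 0.66 for luteal and -0.61 for theca markers. The other 8 marker lists gave r from -0.43 for oocyte to 0.33 for oviduct epithelium markers. Between strains, the summed luteal markers ran from 7331 to 10439.6 CPM in NZO/HlLtJ, from 5383 to 13105 CPM in CAST/EiJ and from 11049 to 16423 CPM in C57BL/6J. In NZO/HlLtJ against C57BL/6J 3 of the 8 luteal markers were lower and none higher, beside 23.9% of all genes tested: Cyp11a1, the enzyme that starts steroid synthesis (log2 -1.88, edgeR adjusted p = 6.39e-07), the HDL receptor gene Scarb1 (-0.98, 0.000321) and Star, which carries cholesterol into mitochondria (-1.42, 0.0477). The call of Star was lost in 13 of 23 fits without 1 library (edgeR adjusted p up to 0.127) and without both libraries high in oviduct markers (0.0528). Hsd3b1, the most abundant of the 8, did not pass and had a higher mean in NZO/HlLtJ. It averaged 5897 ± 554 CPM in NZO/HlLtJ and 5235 ± 749 CPM in C57BL/6J. In CAST/EiJ 4 of the 8 were lower than in C57BL/6J and none higher, near the 46.8% of all genes: Cyp11a1 (log2 -1.13, edgeR adjusted p = 8.45e-05), Scarb1 (-0.60, 0.00744), the prostaglandin F receptor gene Ptgfr (-3.19, 0.000110) and Sfrp4 (-4.03, 6.08e-05). The median log2 fold change of the luteal markers was -1.29 in NZO/HlLtJ and -0.48 in CAST/EiJ, each against C57BL/6J. The part of luteal tissue in the strain differences of the endothelial genes was not tested. Without both libraries high in oviduct markers, the 4 calls between CAST/EiJ and C57BL/6J and the 4 between NZO/HlLtJ and CAST/EiJ held, and between NZO/HlLtJ and C57BL/6J that of Emcn held while those of Cdh5 and Flt1 did not.

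**Figure D4:**
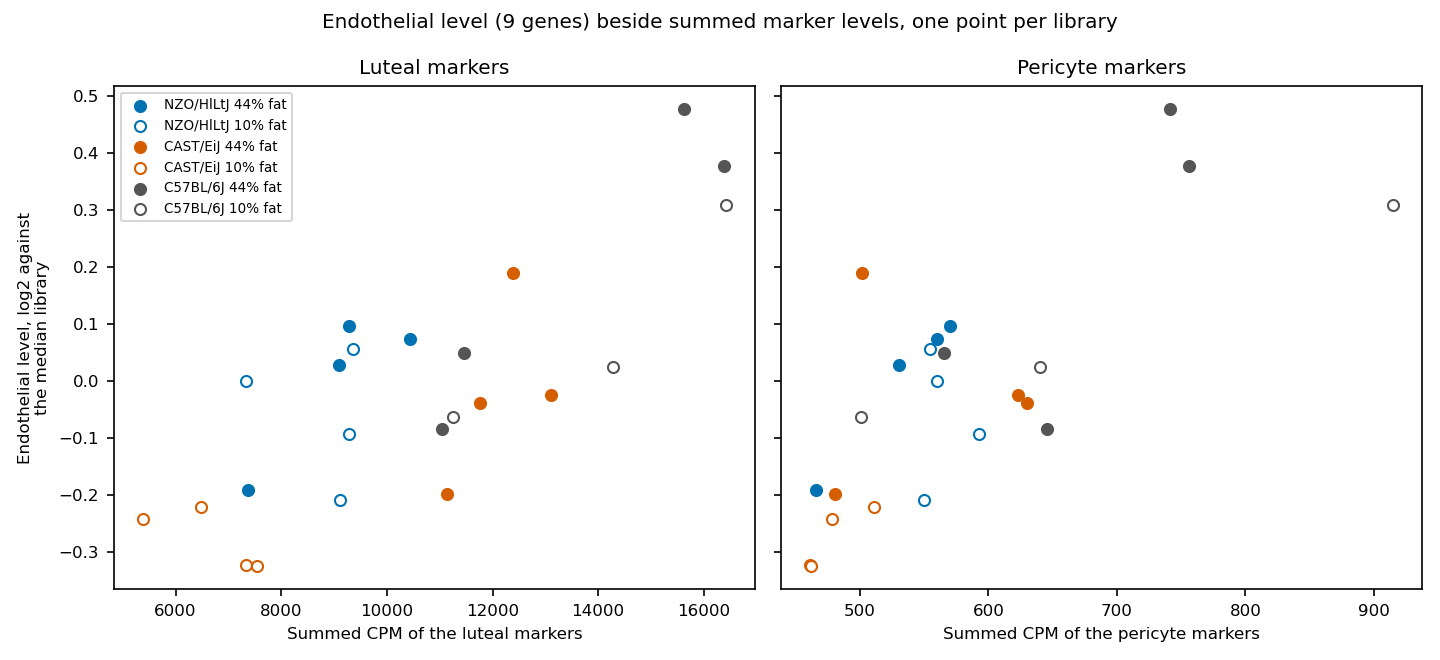
Endothelial level of each library (median over 9 genes of log2 CPM against the median library, vertical axis) beside its summed CPM of the luteal markers (left) and of the pericyte markers (right), 1 point per library. The luteal sum mostly follows Hsd3b1 and Cyp11a1. The 3 C57BL/6J libraries with an endothelial level of 0.31 to 0.48 are those with the highest luteal sums, and the 4 CAST/EiJ libraries on 10% fat are at the lower left.

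Of 11624 genes outside the 10 with a mean of at least 5 CPM, those whose deviations were most like the endothelial pattern were Mmp23 (r = 0.87), Meox1 (r = 0.85), Rasip1 (r = 0.84), Litaf (r = 0.84), Fut8 (r = 0.84), Mmrn2 (r = 0.84), Egfl7 (r = 0.83), Gimap6 (r = 0.83), Rnf149 (r = 0.83) and Scarf1 (r = 0.83), over 23 libraries. Rasip1, Mmrn2 and Egfl7 were among the endothelial identity genes listed for this description. For Vegfa the most alike were Scarb1 (0.80), Arhgef15 (0.79), Vac14 (0.78), Fam120aos (0.77) and Jag2 (0.72).

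The wider vascular genes were described by lists ordered by role, with the same test over all genes. Of all genes tested, 23.9% passed between NZO/HlLtJ and C57BL/6J, 46.8% between CAST/EiJ and C57BL/6J and 48.1% between NZO/HlLtJ and CAST/EiJ, with median log2 fold changes of -0.00065, 0.01 and -0.02. Of 11 other ligands of vessels, 2 passed between NZO/HlLtJ and C57BL/6J, 3 between CAST/EiJ and C57BL/6J and 4 between NZO/HlLtJ and CAST/EiJ, each a share below that of all genes, with median log2 fold changes of 0.05, -0.12 and 0.10. NZO/HlLtJ differed from C57BL/6J in Angpt2, the TEK ligand released by sprouting endothelium, which was 1.81-fold higher (55.7 ± 12.1 CPM in NZO/HlLtJ and 31.4 ± 12.3 CPM in C57BL/6J; edgeR adjusted p = 0.00417). Pdgfb, which recruits pericytes, was 1.34-fold lower (adjusted p = 0.0283). In CAST/EiJ against C57BL/6J, Angpt1, the steadying TEK ligand, was 1.31-fold higher, and the peptide genes Apln and Adm were 3.45-fold and 1.81-fold lower (edgeR adjusted p = 0.0455, 0.0113 and 0.0466), with 8 ligands not passing. Apln varied widely within strains, with 11.9 ± 10.6 CPM in CAST/EiJ and 40.2 ± 35.4 CPM in C57BL/6J. Between NZO/HlLtJ and CAST/EiJ, Vegfc and Vegfd, ligands of lymphatic growth, and Cxcl12 were 1.32-fold, 1.40-fold and 2.05-fold higher in NZO/HlLtJ, and Pdgfb was 1.25-fold lower (edgeR adjusted p = 0.0304, 0.0205, 0.00568 and 0.0441). Several of these calls rested on single libraries: leaving out 1 of the 23 at a time lost that of Angpt1 in 16 fits and Adm in 16 between CAST/EiJ and C57BL/6J, Pdgfb in 5 between NZO/HlLtJ and C57BL/6J, and Pdgfb in 13, Vegfc in 6 and Vegfd in 1 between NZO/HlLtJ and CAST/EiJ, with edgeR adjusted p-values up to 0.148, 0.192, 0.0872, 0.128, 0.0736 and 0.0608 in that order. Without both libraries high in oviduct markers, Apln and Adm did not pass between CAST/EiJ and C57BL/6J (edgeR adjusted p = 0.0562 and 0.0698) and Vegfc did not pass between NZO/HlLtJ and CAST/EiJ (0.0640), while Angpt2 passed as before (0.00923), in a list where 4 ligands then passed between NZO/HlLtJ and C57BL/6J.

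Of 12 further receptor genes, 3 were lower and none higher in NZO/HlLtJ than in C57BL/6J, near the 23.9% of all genes: Flt4, the receptor of VEGF-C (log2 -0.30), Calcrl, the adrenomedullin receptor (-0.33), and S1pr1, the sphingosine-phosphate receptor (-0.44). In CAST/EiJ, Calcrl (-0.51) and S1pr1 (-0.41) were also lower than in C57BL/6J, whereas the VEGF co-receptor genes Nrp1 (0.29) and Nrp2 (0.47) and Ackr3, a scavenger of CXCL12 (1.08), were higher on the log2 scale. These 5 of 12 were near the 46.8% of all genes, and the median log2 fold change of the receptor list was -0.18 in NZO/HlLtJ and -0.05 in CAST/EiJ. The Notch and ephrin list had 4 of 12 genes higher in CAST/EiJ than in C57BL/6J and none lower, below the 46.8% of all genes, with Hey1, a Notch target, at log2 1.13, Heyl at 0.46, Ephb4, a marker of veins, at 0.23 and the vein-determining factor gene Nr2f2 at 0.30. In NZO/HlLtJ against C57BL/6J, Ephb4 (0.39) and Jag2 (0.37) were higher and Notch4, an endothelial Notch receptor, was lower (-0.48), 3 of 12 beside 23.9% of all genes. The median of this list was log2 0.04 in NZO/HlLtJ and 0.21 in CAST/EiJ. Of 11 endothelial transcription factor genes tested, 0 passed between NZO/HlLtJ and C57BL/6J by edgeR (2 at an unadjusted p under 0.05, and 1 called by DESeq2), and between CAST/EiJ and C57BL/6J 4 were lower and 1 higher, near the 46.8% of all genes. Their median was log2 -0.03 in NZO/HlLtJ and -0.18 in CAST/EiJ. The most abundant of them, Ets1 and Elk3, had log2 fold changes of -0.09 and 0.20 between NZO/HlLtJ and C57BL/6J (edgeR adjusted p = 0.554 and 0.0678). The lower ones in CAST/EiJ were the ETS factor genes Fli1 (-0.57) and Elk3 (-0.22), Lyl1 (-0.71) and the flow-responsive Klf2 (-0.46), and Sox17, an arterial factor, was higher (0.68). Without C57BL/6J 10% fat replicate 1 the calls of S1pr1 in both strains, Calcrl in NZO/HlLtJ and Elk3 in CAST/EiJ were lost (edgeR adjusted p up to 0.103 for S1pr1 in NZO/HlLtJ, 0.0831 for S1pr1 in CAST/EiJ, 0.169 for Calcrl and 0.139 for Elk3 over the single libraries). In all, leaving out 1 library lost the call of Calcrl in NZO/HlLtJ in 10 of 23 fits, Jag2 in 6, Elk3 in 4, Ephb4 in CAST/EiJ in 2 and S1pr1 in 2 (NZO/HlLtJ) and 1 (CAST/EiJ), and that of Elk3 was also lost without both libraries high in oviduct markers (adjusted p = 0.0867). With both left out, 4 receptor genes were higher and 2 lower in CAST/EiJ than in C57BL/6J, and 2 transcription factor genes were higher and 3 lower.

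Among 20 other endothelial identity genes, 1 was higher and 7 lower in NZO/HlLtJ than in C57BL/6J, 8 of 20 beside 23.9% of all genes. The most abundant were Adgrf5, 2.47-fold lower (46.1 ± 3.72 CPM in NZO/HlLtJ and 115 ± 10.9 CPM in C57BL/6J; edgeR adjusted p = 3.91e-11), Cd93 (1.48-fold lower), Podxl (1.44-fold lower) and Clec14a, which was 1.85-fold higher (adjusted p = 0.000479). In CAST/EiJ against C57BL/6J, 5 of the 20 were higher and 9 lower, 14 of 20 beside 46.8% of all genes, with Vwf, the clotting factor stored in endothelium, 2.43-fold higher, Tspan18 1.58-fold and Adgrl4 1.53-fold higher, and Cd93 1.55-fold, Adgrf5 1.46-fold and Esam 1.22-fold lower. The call of Esam was lost without C57BL/6J 10% fat replicate 1 (edgeR adjusted p = 0.0609), and without both libraries high in oviduct markers the list had 2 genes higher and 8 lower in NZO/HlLtJ and 5 higher and 10 lower in CAST/EiJ. The median log2 fold change of the list was -0.29 in NZO/HlLtJ and -0.26 in CAST/EiJ, each against C57BL/6J, beside -0.00065 and 0.01 over all genes tested. In the BMP and TGF-beta list, Acvrl1, which encodes ALK1, the receptor that ENG serves, was 2.52-fold higher in NZO/HlLtJ than in C57BL/6J (77.0 ± 12.2 CPM and 30.5 ± 1.85 CPM; log2 1.34 ± 0.10 SE, edgeR adjusted p = 3.78e-09) and was the only one of the 12 that passed between these strains, beside 23.9% of all genes. In CAST/EiJ it averaged 24.6 ± 3.91 CPM and was 1.25-fold lower than in C57BL/6J (edgeR adjusted p = 0.0109). Between CAST/EiJ and C57BL/6J 3 of the 12 were higher and 3 lower, near the 46.8% of all genes, and the counts were 3 and 3 without both libraries high in oviduct markers. The higher ones were the inhibitory SMAD genes Smad6 (log2 0.76, edgeR adjusted p = 5.09e-05) and Smad7 (0.44, 0.0202) and the ligand gene Bmp6 (0.56, 0.0141), and lower besides Acvrl1 were the ligand gene Tgfb1 (-0.90, 0.000164) and the receptor gene Tgfbr2 (-0.36, 0.000805). The call of Smad7 was lost in 3 of 23 fits without 1 library (edgeR adjusted p up to 0.0609), and the list's median was log2 0.01 in NZO/HlLtJ and -0.03 in CAST/EiJ. Eng passed in neither comparison.

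Genes listed as markers of pericytes and of smooth muscle also differed by strain, and whether the smooth muscle RNA came from vessels was not tested. Of 9 pericyte genes, 6 were lower and none higher in NZO/HlLtJ than in C57BL/6J, beside 23.9% of all genes, and 4 were lower and none higher in CAST/EiJ than in C57BL/6J, near the 46.8% of all genes. Rgs5, a pericyte marker, had 89.6 ± 8.84 CPM in NZO/HlLtJ, 42.3 ± 6.70 CPM in CAST/EiJ and 148 ± 44.8 CPM in C57BL/6J, with edgeR adjusted p-values of 0.00149 and 1.01e-08 against C57BL/6J. The other named pericyte genes that passed were Anpep (log2 -0.61, edgeR adjusted p = 0.000272) and Mcam (-0.65, 0.000615) in NZO/HlLtJ, and Higd1b (-1.66, 0.000103), Abcc9 (-0.48, 0.0163) and Anpep (-0.27, 0.0418) in CAST/EiJ, each against C57BL/6J. Higd1b was near the floor, with 0.415 ± 0.274 CPM in CAST/EiJ and 1.29 ± 0.294 CPM in C57BL/6J. In CAST/EiJ the call of Anpep was lost in 8 of 23 fits without 1 library and that of Abcc9 without C57BL/6J 10% fat replicate 1 (edgeR adjusted p up to 0.229 and 0.0736). Pdgfrb, the most abundant of the 9, did not pass between NZO/HlLtJ and C57BL/6J and had a higher mean in NZO/HlLtJ. It averaged 192 ± 22.6 CPM in NZO/HlLtJ, 154 ± 42.2 CPM in CAST/EiJ and 159 ± 27.8 CPM in C57BL/6J. The median log2 fold change of the pericyte list was -0.61 in NZO/HlLtJ and -0.16 in CAST/EiJ. All 8 smooth muscle genes were lower in NZO/HlLtJ than in C57BL/6J, beside 23.9% of all genes, among them Acta2 (1.73-fold), Myh11 (1.74-fold) and Tagln (2.10-fold). By edgeR none of the 8 passed between CAST/EiJ and C57BL/6J, with 0 at an unadjusted p under 0.05 and 0 called by DESeq2, beside 46.8% of all genes. The list's median was log2 -0.93 in NZO/HlLtJ and -0.04 in CAST/EiJ. In CAST/EiJ Acta2 and Myh11 had log2 fold changes of -0.17 and 0.21. Without both libraries high in oviduct markers 7 of the 8 were lower in NZO/HlLtJ and the pericyte counts were unaltered. Summed smooth muscle markers ran from 795 to 1081 CPM in NZO/HlLtJ, from 989 to 2875 CPM in CAST/EiJ and from 1246 to 2343 CPM in C57BL/6J. Their part in the strain difference of Emcn was not tested.

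**Figure D5:**
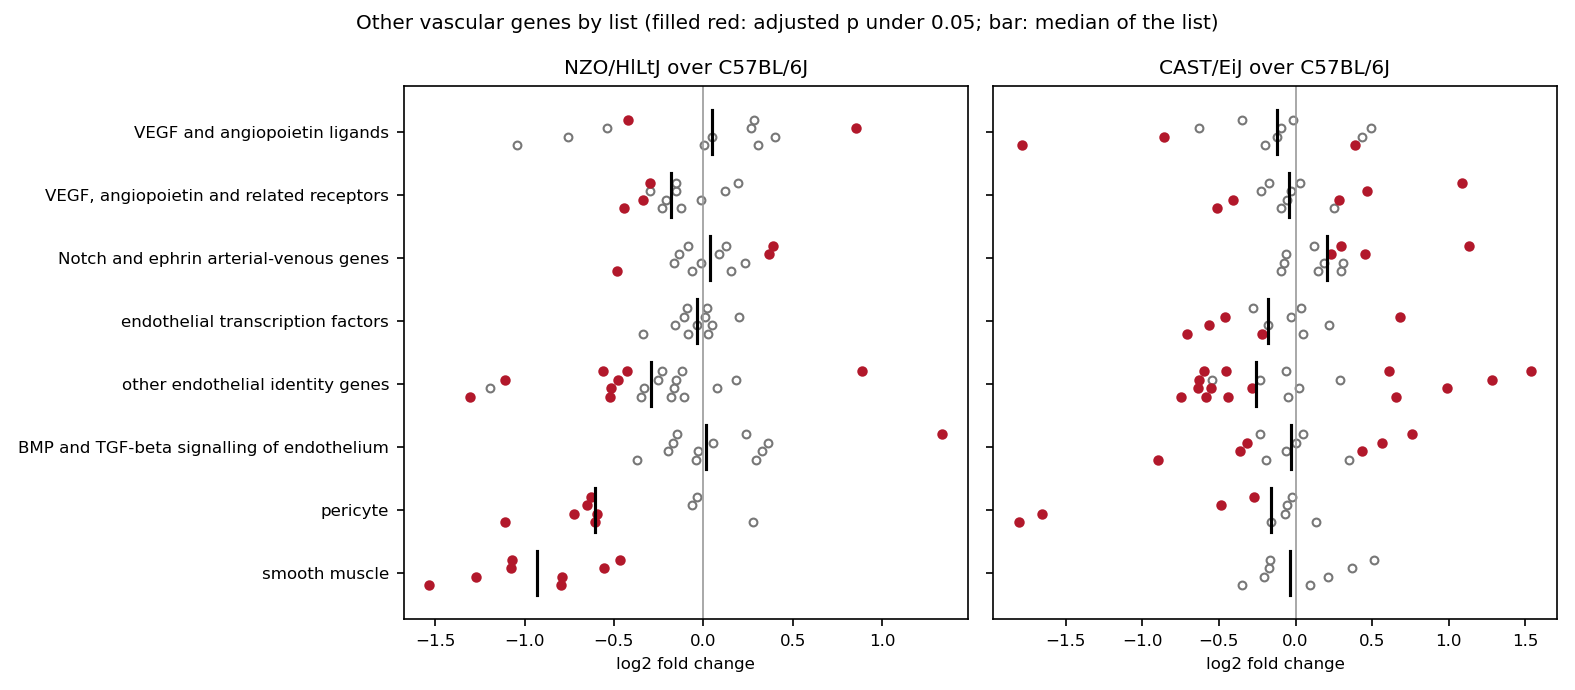
Log2 fold change (horizontal axes) of each gene of 8 lists, pericyte and smooth muscle included, in NZO/HlLtJ over C57BL/6J (left) and CAST/EiJ over C57BL/6J (right), with filled points for an edgeR adjusted p under 0.05 and a bar at the median of each list. All 8 smooth muscle genes are filled and below 0 in the NZO/HlLtJ panel, and none is filled in the CAST/EiJ panel.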

How the data were processed

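RNA-seq of mouse ovary tissue was represented by 23 libraries in 6 groups of strain and diet. The deposited table of the authors holds estimated counts per gene, of which 27.43% are not whole numbers, so they were rounded first. A second table, on a log2 scale, holds variance-stabilised values that the authors deposited, and per the submitters' processing notes DESeq2 and the genome build GRCm38 were used. The aligner, the counting tool and whether reads were counted by strand are not given in the sources used here. Library totals were 31938819 to 45850873 (39020854 ± 4125678, SD, n = 23). None of the 33 pairs of libraries within a group matched within sampling noise (chi-square per degree of freedom 11.549 to 203.488).

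Counts were tested in R 4.3.3 with the robust quasi-likelihood test of edgeR 4.0.16 on all 23 libraries with 6 group means, TMM scaling and Benjamini-Hochberg adjustment over all genes tested. Genes needed a count of about 10 in as many libraries as the smallest group and a total of 15, which left 20189 of 24716. The common biological coefficient of variation was 0.268. The procedure was tested on simulated data with 200 changed genes. It recovered 61 of the 100 genes changed 2-fold and 29 of those changed 1.5-fold, with 8 false calls. Many changes of these sizes were thus missed, and a gene that did not pass may still differ. The SE was obtained as the size of the log2 fold change over the root of the F statistic, and 95% intervals use 17 residual degrees of freedom. Levels are CPM scaled by TMM factors. In the comparisons where a list is described by name, the genes that passed are named, or the 3 per direction with the highest mean CPM where more than 5 passed. The members, the lists and the alternatives were chosen with earlier results of these data known. Alternatives used limma 3.58.1, DESeq2 1.42.0, other scaling, no filter, the identifier series as a term, only the groups compared, and each library left out. Leaving out both libraries high in oviduct markers was an alternative chosen after seeing the data. The genes most like the endothelial pattern were ranked by Pearson correlation of deviations from group means. Promoter windows are from RefSeq (GRCm38.p6), in which 7 of the 10 genes matched by symbol.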

Additional observations from a re-analysis of the deposited data

How the results depend on the processing

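None of the members that passed between strains changed direction in any of the 31 alternatives. Among those that did not pass, close to 0, the direction was reversed for Pecam1 between CAST/EiJ and C57BL/6J with the identifier series as a term (log2 0.0502), with limma on the variance-stabilised values (0.00608) and without both libraries high in oviduct markers (0.0199), and ran from -0.0684 to 0.0726 without 1 library. In the same comparison that of Vegfa was reversed with no count filter (-0.00467) and ran from -0.0522 to 0.0899 without 1 library, and Eng ran from -0.184 to 0.0238 without 1. Between NZO/HlLtJ and C57BL/6J it was reversed for Tek by limma voom with library weights (log2 0.00390), and without 1 library the values ran from -0.146 to 0.0367 for Kdr and from -0.00167 to 0.106 for Plvap. Of the diet differences named above, in NZO/HlLtJ that of Emcn was reversed by limma voom (log2 -0.0108) and ran from -0.0191 to 0.0555 without 1 library, as that of Kdr ran from -0.0704 to 0.0350, and in C57BL/6J that of Eng ran from -0.209 to 0.207. Of the 10 genes, 3 passed between NZO/HlLtJ and C57BL/6J, but 1 with limma on the variance-stabilised values, 1 with only the groups compared in the fit, and 1 without both libraries high in oviduct markers, an alternative chosen after seeing the data. Leaving out 1 library at a time gave 1 to 5, the highest being without C57BL/6J 44% fat replicate 2. Between NZO/HlLtJ and CAST/EiJ 4 passed, and 7 by limma voom with library weights. The cause was not tested. All other counts of members called stayed within 1.5 times.

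Counts over all genes moved more. Between the diets in CAST/EiJ 126 genes passed, against 613 by DESeq2, 220 by voom with weights, 78 by limma on the variance-stabilised values, 66 with the identifier series as a term, 0 with only the groups compared and 28 to 220 without 1 library. In C57BL/6J 0 passed, against 68 by DESeq2, 791 by voom and up to 330 without 1 library. In NZO/HlLtJ 0 passed, against 4 by DESeq2 and 2 by voom, and averaged over strains 0, against 19 and 1. Between NZO/HlLtJ and C57BL/6J 4828 passed, against 7916 by voom. For the diet effect in CAST/EiJ against C57BL/6J 124 passed, against 851 by DESeq2, 1312 by voom, 49 with the series term, 17 with only the groups compared, 30 without both libraries and 8 to 877 without 1. For NZO/HlLtJ against CAST/EiJ 3 passed, against 195 by DESeq2 and 195 by voom, 5 without both libraries and 0 to 11 without 1, and for NZO/HlLtJ against C57BL/6J 0, against 5 by DESeq2. No paired analysis was possible because the labels give no replicate numbers, and those used here follow the order of deposit.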

Other observations

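Genes of the response to low oxygen, the textbook inducer of Vegfa, differed between strains in both directions. Of 15 such genes, 1 was higher and 6 were lower in NZO/HlLtJ than in C57BL/6J, beside 23.9% of all genes tested that passed in either direction. Slc2a1, which encodes the glucose transporter GLUT1, was 1.44-fold higher (log2 0.52, edgeR adjusted p = 0.00249). The oxygen-regulated factor genes Epas1 (log2 -0.62, adjusted p = 0.00101) and Hif1a (-0.27, 0.00588) and the lactate dehydrogenase gene Ldha (-0.50, 0.0130) were among the lower ones by edgeR. In CAST/EiJ against C57BL/6J 4 were higher and 3 lower, near the 46.8% of all genes, and without both libraries high in oviduct markers 3 were higher and 6 lower. The higher ones included P4ha1 (log2 0.49), Pdk1 (0.46) and Egln1, an oxygen sensor (0.26), with edgeR adjusted p-values of 0.00347, 7.98e-05 and 0.00744. The lower ones were the glycolysis gene Pgk1 (-0.98), Bnip3 (-0.57) and the carbonic anhydrase gene Car9 (-0.71), with 5.15e-05, 0.00176 and 0.00183. By edgeR none of the 15 passed between the diets in any strain, and without both libraries high in oviduct markers 1 was lower on 44% fat in CAST/EiJ.

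Among 7 genes of lymphatic endothelium, 2 were higher and 2 lower in CAST/EiJ than in C57BL/6J, beside 46.8% of all genes tested. The chemokine gene Ccl21a was 1.73-fold higher (log2 0.79, edgeR adjusted p = 0.000355), and Pdpn and Itga9 were 1.87-fold and 1.95-fold lower (adjusted p = 7.16e-05 and 1.47e-06). Lyve1, a hyaluronan receptor of lymphatic vessels and some macrophages, was 4.26-fold higher (log2 2.09, edgeR adjusted p = 0.0152), but log2 0.25 with an adjusted p of 0.239 without CAST/EiJ 10% fat replicate 2, which was the library with the highest oviduct markers and the highest summed lymphatic markers, 749 CPM. In the other 7 CAST/EiJ libraries the lymphatic sum ran from 350.1 to 505 CPM, and in C57BL/6J from 441 to 562 CPM. Itga9 weighed most in this sum, with a mean of 242 CPM over all libraries, against 97.1 CPM for Ccl21a, the next most abundant. Whether Itga9 and Pdpn came from lymphatic vessels was not tested. CAST/EiJ 10% fat replicate 2 also had a summed level of white adipocyte markers of 1276 CPM. Between NZO/HlLtJ and C57BL/6J 1 of the 7 passed, beside 23.9% of all genes. It was Mmrn1, which was 1.35-fold lower (edgeR adjusted p = 0.0236) and did not pass without C57BL/6J 10% fat replicate 1 or 44% fat replicate 4 (adjusted p up to 0.0646).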
